A study of Homo sapiens with 12 samples.

Results

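Expression was followed for 10 genes of the non-canonical NF-kB pathway, namely the receptors CD40, TNFRSF13C and TNFRSF17, the complex genes TRAF2, TRAF3, BIRC2 and BIRC3, the kinase gene MAP3K14, and the subunit genes NFKB2 and RELB. They were listed by name and matched to Ensembl identifiers in a table of raw counts, where all 10 were found among 63677 genes and all 10 passed the filter on low counts that kept 19375 genes for testing. The libraries come from JEKO1, JVM2 and MAVER1, established cell lines of mantle cell lymphoma, a B-cell tumor. Each line was left as control or exposed for 48 h to ironomycin, to ibrutinib or to the combination, which gives 12 libraries with 1 per line and treatment. Ironomycin is made from salinomycin and traps iron in the lysosome, and its dose was 50 nM for JEKO1 and 250 nM for both other lines. Ibrutinib, which inhibits the B-cell receptor kinase BTK, was used at 0.5 µM in JEKO1, 1.5 µM in JVM2 and 6.25 µM in MAVER1. JEKO1 and MAVER1 grew in 20% fetal calf serum and JVM2 in 10%, so line, serum and the doses that differed cannot be told apart.

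In the resting state of this pathway, the adaptors TRAF2 and TRAF3 hold the ubiquitin ligases cIAP1 and cIAP2, encoded by BIRC2 and BIRC3, against the kinase NIK, encoded by MAP3K14, and NIK is degraded. Receptors of the TNF family such as CD40 and the BAFF receptor BAFF-R, encoded by TNFRSF13C, draw TRAF3 away when a ligand binds, and NIK accumulates. NIK then drives the processing of p100, the product of NFKB2, to p52, which enters the nucleus with RELB. TNFRSF17 encodes BCMA, a receptor for BAFF and APRIL that is best known from plasma cells. The transcript counts used here report neither NIK protein nor p100 processing.

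Library totals ran from 35448523 to 38630809 reads and TMM scaling factors from 0.912 to 1.20, with the highest factor and the lowest total both in the JEKO1 combination library. B-cell transcripts were present in every library, with CD79A at 236 to 501 CPM (reads of a gene scaled by library size and TMM factor). Of the markers of mantle cell lymphoma, SOX11 had 0 reads in the 4 JVM2 libraries, CD5 had 1 to 2 reads there, and CCND1 lay at 216 to 323 CPM in JVM2 against at least 2169 CPM in the other lines. The 6 T-cell markers together stayed at or below 3.49 CPM and 5 monocyte markers at or below 8.73 CPM in every library. In bulk samples, fewer cells that express a gene and less RNA per cell cannot be told apart.

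TRAF3 separated the lines most widely. JEKO1 held 6445 reads in the control library, 5938 with ironomycin, 5644 with ibrutinib and 4918 with the combination. JVM2 held 5191, 5676, 5941 and 6386 reads in the same order. MAVER1 held 1, 1, 2 and 1 reads. TRAF3 was thus abundant in all libraries of JEKO1 and JVM2 and near 0 in all libraries of MAVER1, under every treatment. Summed over the 4 libraries and scaled by library size, MAVER1 had 0.0241% of the JEKO1 level, with an exact 95% interval of 0.00782% to 0.0562% that covers counting error only, and 0.0209% of the JVM2 level with an interval of 0.0068% to 0.0489%. These shares put MAVER1 4153-fold below JEKO1, with an interval of 1779- to 12790-fold, and 4775-fold below JVM2, with an interval of 2046- to 14710-fold. The fitted log2 fold change of MAVER1 against JVM2 was -12.09 (SE 0.21, adjusted p = 5.32e-12 in edgeR's quasi-likelihood test) and against JEKO1 -11.89 (SE 0.21, adjusted p = 1.3e-11), values that depend on the prior count because so few reads were seen. JVM2 and JEKO1 overlapped in TRAF3 and differed by 0.20 on the log2 scale (SE 0.10, adjusted p = 0.0791), a difference that did not pass the test, and by 0.32 without the control libraries (adjusted p = 0.0179).

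The genes beside TRAF3 on chromosome 14 were then read in RefSeq gene order, a choice made after the TRAF3 counts were seen. RCOR1, the protein-coding gene just before TRAF3, held 1114 to 1347 reads in MAVER1. AMN, the gene just after TRAF3, held 0 to 1 reads in MAVER1, against 2353 to 3405 in JEKO1 and 45 to 59 in JVM2. CDC42BPB, the next gene, held 0 to 3 reads in MAVER1, against 1659 to 2311 in JEKO1 and 1144 to 1500 in JVM2. Reads were thus near 0 in MAVER1 over TRAF3, AMN and CDC42BPB, 3 genes in a row. EXOC3L4, further on, had 0 reads in MAVER1 but at most 10 in any library. Reads returned at TNFAIP2, with 28 to 112 in MAVER1, and at the translation factor gene EIF5, with 10267 to 13427. Across the whole table, 2 genes had at most 2 reads in every MAVER1 library and at least 1000 in each of the other libraries, of which TRAF3 was the only one with a gene name. With a minimum of 500 reads in the other lines there were 6, and the named ones were TRAF3, MTAP, CDKN2A, KLHL29 and BEX3. The counts do not show what lies behind these low values, and the cause was not tested.

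**Figure D1:**
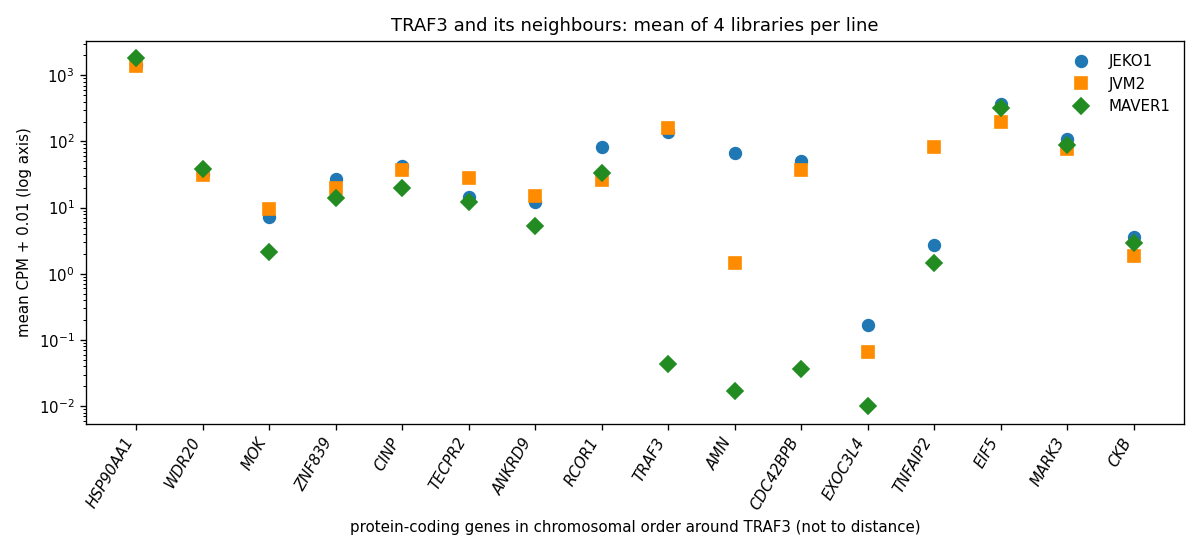
Mean CPM plus 0.01 (log axis) of TRAF3 and the protein-coding genes around it in 3 lines, each point the mean of 4 libraries, in chromosomal order but not to distance. MAVER1 drops to near 0 at TRAF3, AMN and CDC42BPB, while EXOC3L4 is low in all lines. MAVER1 has reads again at TNFAIP2, where it lies near JEKO1 and below JVM2, and it lies between the other lines at EIF5.

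TRAF2, the partner adaptor, was expressed in all lines within a narrow band. Its log2 CPM was 5.45 to 5.79 in JEKO1 libraries, 5.63 to 6.02 in JVM2 libraries and 5.89 to 6.39 in MAVER1 libraries. MAVER1 lay 0.52 above JEKO1 on the log2 scale (SE 0.08, adjusted p = 0.000236) and 0.28 above JVM2 (adjusted p = 0.0122), and JVM2 lay 0.24 above JEKO1 (adjusted p = 0.0214), differences that passed the p-value threshold but not the minimum fold. Per kilobase of exon, TRAF3 was 1.17 to 1.36 times as abundant as TRAF2 in JEKO1 and 1.13 to 1.40 times in JVM2.

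BIRC2 and BIRC3 were ordered in opposite ways over the lines. For BIRC2, the log2 CPM was 5.81 to 5.97 in JEKO1, 4.97 to 5.15 in JVM2 and 4.13 to 4.53 in MAVER1, with no overlap between any of the lines. BIRC2 was lower in MAVER1 than in JEKO1 by a log2 fold change of -1.55 (SE 0.08, adjusted p = 1.55e-08), and JVM2 lay between them, at -0.79 from JEKO1 (adjusted p = 1.6e-06), with MAVER1 at -0.76 from JVM2 (adjusted p = 3.08e-06), both below the minimum fold. For BIRC3, JEKO1 gave 5.70, 4.78, 4.32 and 4.59 with control, ironomycin, ibrutinib and the combination, JVM2 gave 5.995, 6.17, 6.42 and 6.58, and MAVER1 gave 6.93, 6.63, 7.16 and 6.72. All JVM2 libraries lay above all JEKO1 libraries, and all MAVER1 libraries above all JVM2 libraries. BIRC3 was higher in JVM2 than in JEKO1 by 1.42 (SE 0.26, adjusted p = 0.000356) and in MAVER1 by 1.96 (SE 0.26, adjusted p = 4.41e-05), while the difference of 0.54 between MAVER1 and JVM2 did not pass the test (SE 0.25, adjusted p = 0.068). Per kilobase, BIRC3 stood at 0.210 to 0.560 of BIRC2 in JEKO1, at 1.22 to 1.63 times BIRC2 in JVM2 and at 2.76 to 4.74 times BIRC2 in MAVER1. The pair are close paralogs, and how reads matching both were counted is not given in the sources used here.

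MAP3K14 had a log2 CPM of 4.90 to 5.24 in JEKO1, 5.88 to 6.11 in JVM2 and 5.93 to 6.16 in MAVER1. JEKO1 lay below the other lines in all libraries, while JVM2 and MAVER1 overlapped. The difference was 1.04 for MAVER1 against JEKO1 (SE 0.08, adjusted p = 9.12e-07) and 0.98 for JVM2 against JEKO1 (adjusted p = 8.3e-07), on either side of the minimum fold, and 0.06 for MAVER1 against JVM2 (adjusted p = 0.553). Without the ibrutinib libraries, the MAVER1 difference was 0.99, and without the control libraries, the JVM2 difference was 1.08, so that each crossed the minimum fold. An antisense gene overlaps MAP3K14, and the strand setting of the counting is not given in the sources used here.

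NFKB2 and RELB, the subunits at the end of the pathway, were not ordered alike over the lines. NFKB2 gave log2 CPM values of 7.14, 6.87, 5.59 and 6.37 in JEKO1 with control, ironomycin, ibrutinib and the combination, 7.99, 8.35, 8.15 and 8.43 in JVM2, and 8.82, 8.48, 8.52 and 8.33 in MAVER1. Every JEKO1 library lay below every library of the other lines, which overlapped with each other. NFKB2 was higher than in JEKO1 by 1.72 in JVM2 (SE 0.23, adjusted p = 4.01e-05) and by 2.01 in MAVER1 (SE 0.23, adjusted p = 1.74e-05), and MAVER1 against JVM2 had 0.29 (adjusted p = 0.264). RELB gave 6.77, 6.58, 4.88 and 6.23 in JEKO1, 5.29, 5.47, 5.65 and 5.79 in JVM2, and 7.21, 7.14, 6.88 and 6.94 in MAVER1. RELB was lowest on average in JVM2, although the JEKO1 ibrutinib library alone lay below all JVM2 libraries. RELB was higher in MAVER1 than in JVM2 by 1.46 (SE 0.27, adjusted p = 0.000581), and JVM2 against JEKO1 did not pass the test (-0.61, SE 0.28, adjusted p = 0.0644). That value was -0.998 without the ibrutinib libraries (adjusted p = 0.000542) and -0.31 without the control libraries (adjusted p = 0.345). MAVER1 exceeded JEKO1 in RELB by 0.85 (adjusted p = 0.0169), by 1.02 without the control libraries, which is past the minimum fold, and by 0.57 without the ibrutinib libraries. Per kilobase, NFKB2 was 0.746 to 1.10 times RELB in JEKO1, 3.82 to 4.99 times in JVM2 and 1.71 to 2.11 times in MAVER1.

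Promoters of 6 of the members were read from RefSeq (GRCh38.p14) to show where a kB-type motif, the kind of site NF-kB dimers bind, lies in these genes. The motif searched was GGG, NN, TT, N and CC written as 1 run, where N is any base, on both strands of the 250 bases before each start site. It was found in 1779 of 35116 windows, or 5.07%. The members had 9 windows, of which 4 held it, in NFKB2, BIRC3 and TRAF3. In the printed stretches, all on the plus strand and written 5′ to 3′, capitals mark the matches. The NFKB2 stretch begins 250 bases before the start site, with matches starting 176 and 21 bases before it, the BIRC3 stretch has a match starting 199 bases before its start site, read from the opposite strand, and the TRAF3 stretch has one starting 33 bases before.
NFKB2, chr10:102395455-102395693: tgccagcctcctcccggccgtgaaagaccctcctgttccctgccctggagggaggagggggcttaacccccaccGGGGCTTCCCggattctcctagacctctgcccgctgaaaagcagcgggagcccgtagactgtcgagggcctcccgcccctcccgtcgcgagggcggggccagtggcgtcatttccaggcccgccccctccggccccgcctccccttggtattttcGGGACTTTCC
BIRC3, chr11:102317234-102317449: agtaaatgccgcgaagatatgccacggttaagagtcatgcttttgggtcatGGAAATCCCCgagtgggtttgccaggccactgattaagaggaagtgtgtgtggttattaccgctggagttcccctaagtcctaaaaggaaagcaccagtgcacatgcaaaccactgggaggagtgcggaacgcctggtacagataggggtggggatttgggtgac
TRAF3, chr14:102777199-102777448: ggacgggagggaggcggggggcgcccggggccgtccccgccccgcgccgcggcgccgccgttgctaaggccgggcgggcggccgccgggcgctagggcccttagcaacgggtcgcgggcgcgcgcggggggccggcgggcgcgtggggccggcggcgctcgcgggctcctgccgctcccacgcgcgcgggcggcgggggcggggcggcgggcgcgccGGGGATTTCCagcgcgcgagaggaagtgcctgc
A match describes letters and not binding, and these windows were not tied to the start sites used in the 3 lines. NFKB2 has 2 further RefSeq windows, of which 1 holds 3 matches and 1 none.

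The receptors also differed between lines. CD40, the receptor for CD40 ligand on B cells, gave log2 CPM values of 5.69, 4.66, 4.62 and 4.57 in JEKO1 with control, ironomycin, ibrutinib and the combination, 6.28, 6.65, 6.60 and 6.88 in JVM2, and 5.83, 4.71, 5.71 and 5.13 in MAVER1. All JVM2 libraries lay above all others, while JEKO1 and MAVER1 overlapped. CD40 was higher in JVM2 than in JEKO1 by 1.75 (SE 0.26, adjusted p = 8.13e-05) and lower in MAVER1 than in JVM2, with a log2 fold change of -1.29 (adjusted p = 0.000817), and MAVER1 against JEKO1 had 0.45 (adjusted p = 0.136). TNFRSF13C gave 5.52, 5.91, 5.33 and 6.24 in JEKO1, 4.83, 4.92, 4.58 and 4.93 in JVM2, and 3.52, 4.61, 3.46 and 5.01 in MAVER1. JEKO1 lay above both other lines without overlap. MAVER1 was lower than JEKO1, at -1.57 (SE 0.19, adjusted p = 2.13e-05), and JVM2 differed from JEKO1 by -0.92 (adjusted p = 0.000765), which did not reach the minimum fold but was -1.002 without the control libraries and -1.14 when library totals replaced TMM. MAVER1 against JVM2 had -0.65 (adjusted p = 0.00899), under the minimum fold. TNFRSF17 gave 2.99, 5.07, 2.78 and 5.24 in JEKO1, 6.38, 5.75, 6.12 and 5.74 in JVM2, and 5.17, 6.58, 5.11 and 6.50 in MAVER1. TNFRSF17 was higher than in JEKO1 by 2.03 in JVM2 (SE 0.47, adjusted p = 0.00194) and by 1.69 in MAVER1 (SE 0.44, adjusted p = 0.0054), although MAVER1 overlapped with both other lines and had -0.34 against JVM2 (adjusted p = 0.512). Per kilobase, TNFRSF17 was 0.598 to 1.97 times TNFRSF13C in JEKO1, 6.20 to 10.3 times in JVM2 and 9.96 to 13.8 times in MAVER1.

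**Figure D2:**
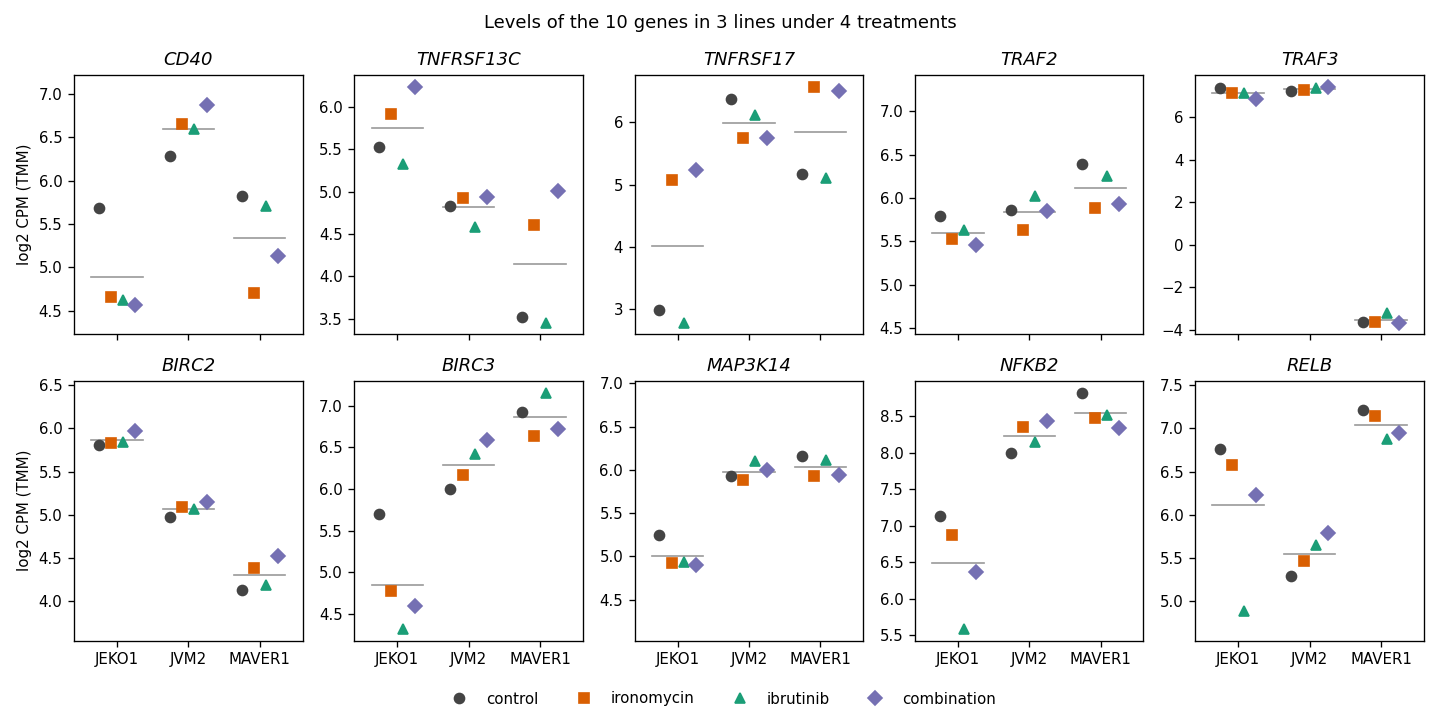
Log2 CPM of the 10 genes in 12 libraries, by cell line on the x axis, with a symbol for each treatment and a grey bar at the mean of the 4 libraries of a line. Each panel has its own y axis, and TRAF3 in MAVER1 lies below 0 on the log2 scale.

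Counted over the members, 4 of 10 were called in JVM2 against JEKO1, all higher, where 47.4% of all tested genes were called, 23% higher and 24.4% lower. In MAVER1 against JEKO1, 7 of 10 were called, 4 higher and 3 lower, where 34.7% of all genes were called, 15.1% higher and 19.6% lower. In MAVER1 against JVM2, 3 of 10 were called, 1 higher and 2 lower, where 40.3% of all genes were called, 18.6% higher and 21.7% lower. With both directions counted, the share in JVM2 against JEKO1 and in MAVER1 against JVM2 was thus near or below the background. A call here needs an adjusted p below 0.05 together with a log2 difference of 1 or more, up or down. The differences are averaged over the 4 treatments. In controls, JVM2 and JEKO1 had log2 CPM values of 5.995 and 5.70 for BIRC3, and 6.28 and 5.69 for CD40. For NFKB2 they were 7.99 and 7.14. Each pair was less than 1 apart, unlike TNFRSF17 (6.38 and 2.99). Also less than 1 apart in controls were MAVER1 and JVM2 for CD40 (5.83 and 6.28). MAVER1 and JEKO1 were so for MAP3K14 (6.16 and 5.24). The spread behind these p-values is that between the 4 libraries of a line under different treatments, so the p-values do not measure the spread between independent cultures of 1 condition. The share of the variance over 12 libraries that lay between lines was 99.9% for TRAF3, 97.3% for BIRC2, 94.8% for MAP3K14, 85.6% each for BIRC3 and NFKB2, 77.2% for CD40, 68.4% for TNFRSF13C, 65.6% for RELB, 62.5% for TRAF2 and 56.6% for TNFRSF17.

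**Figure D3:**
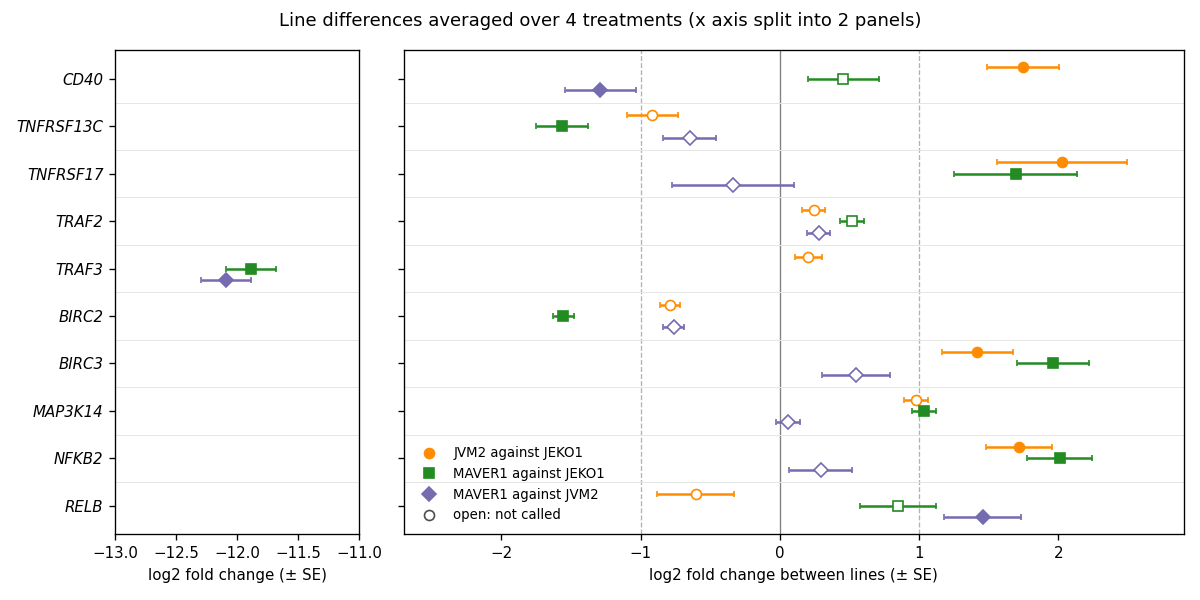
Log2 fold change between lines, with SE, for the 10 genes in 3 line comparisons from the edgeR fit; filled symbols were called, open symbols were not, dashed lines mark a log2 fold change of 1 in size, and the x axis is split so that TRAF3 in MAVER1, near -12, can be shown. BIRC3, NFKB2 and TNFRSF17 lie right of 0 in both comparisons with JEKO1, and BIRC2 lies left of 0.

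Genes of the surrounding pathway were read from lists written by hand, beside the shares of all tested genes called: 47.4% in JVM2 against JEKO1, 34.7% in MAVER1 against JEKO1 and 40.3% in MAVER1 against JVM2. By direction, 23% were higher and 24.4% lower in the first, 15.1% and 19.6% in the second, and 18.6% and 21.7% in the third. Of 12 tested TNF-family ligands, 11 were called in JVM2 against JEKO1 (10 higher, 1 lower), 4 in MAVER1 against JEKO1 (3 higher, 1 lower) and 8 in MAVER1 against JVM2 (1 higher, 7 lower). LTA, encoding lymphotoxin alpha, lay at 108 to 145 CPM in JVM2, 9.36 to 11.1 CPM in MAVER1 and at or below 0.20 CPM in JEKO1. TNF itself lay at 38.3 to 52.8 CPM in JVM2 and TNFSF14, the gene of LIGHT, at 36.3 to 37.6 CPM, against at most 1.43 CPM in the other lines for each. The BAFF gene TNFSF13B lay at 6.63 to 8.78 CPM in JVM2 and at or below 0.25 CPM in the other lines, and the APRIL gene TNFSF13 at 15.5 to 21.3 CPM in JVM2 against 1.94 to 3.95 CPM elsewhere. LTB, the gene of lymphotoxin beta, was instead highest in MAVER1, where it lay at 31.5 CPM in the control, 4.27 with ironomycin, 45.3 with ibrutinib and 7.20 with the combination, against at most 1.88 CPM elsewhere. TNFSF10, the gene of TRAIL, was higher in MAVER1 than in JEKO1 by 1.91 (adjusted p = 4.81e-06). TNFSF8, which encodes CD30 ligand, was the ligand gene called lower than in JEKO1, where it lay at 1.60 to 7.28 CPM, with 0 to 1 reads in JVM2 and 0 in MAVER1. CD40LG was listed at 0 reads in all 12 libraries, which allows up to 3 reads, or 0.0706 to 0.0858 CPM, in a library by counting error. That bound covers counting error only. IKBKE, IKBKG and OTUD7B were also listed at 0 reads, and whether such values stem from how genes were matched or counted was not tested.

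Of 17 tested TNF-family receptors other than the members, 10 were called in JVM2 against JEKO1 (8 higher, 2 lower), 10 in MAVER1 against JEKO1 (6 higher, 4 lower) and 12 in MAVER1 against JVM2 (3 higher, 9 lower). TNFRSF8, the gene of CD30, lay at 253 to 353 CPM in JVM2 and at or below 0.88 CPM elsewhere. TNFRSF9, which encodes 4-1BB, lay at 2.35 to 4.71 CPM in JVM2 and had at most 4 reads in any library of the other lines. TNFRSF13B, which encodes TACI, another receptor for BAFF and APRIL, lay at 265 to 285 CPM in JVM2, against 34.7 to 59.9 CPM in the other lines. The death receptor gene FAS lay at 96.3 to 129 CPM in JVM2, 11.3 to 14.2 in MAVER1 and at or below 0.26 in JEKO1. Lower in JVM2 than in JEKO1 were TNFRSF18, the gene of GITR, at -3.01 (adjusted p = 9.39e-07), and TNFRSF4, the gene of OX40, at -2.25 (adjusted p = 0.000116). In MAVER1 against JEKO1, the TNF receptor gene TNFRSF1B was higher by 2.32 and the RANK gene TNFRSF11A by 1.84. CD27 was lower in MAVER1, at 0.32 to 2.21 CPM, than in JEKO1, by a log2 fold change of -4.15 (SE 0.36, adjusted p = 1.72e-06), the other TNF receptor gene TNFRSF1A had -3.18 and TNFRSF4 had -1.62. Higher in MAVER1 than in JVM2 were TNFRSF18 by 1.84, TNFRSF25 by 1.38 and the TRAIL receptor gene TNFRSF10A by 1.10. The lymphotoxin beta receptor gene LTBR did not exceed 0.19 CPM in any library.

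Of 20 tested TRAF adaptors, kinases and ubiquitin regulators, 9 were called in JVM2 against JEKO1, all higher, 5 in MAVER1 against JEKO1 (4 higher, 1 lower) and 8 in MAVER1 against JVM2, all lower. With both directions counted, these shares were near or below those of all genes. By direction, the 9 of 20 higher stood beside 23% of all genes, and the 8 of 20 lower beside 21.7%. TRAF3IP2, an adaptor of the IL-17 receptor, lay at 35.6 to 38.99 CPM in JVM2, 5.91 to 6.82 in MAVER1 and 1.71 to 2.39 in JEKO1. TRAF1, an adaptor gene and known NF-kB target, lay at 244 to 354 CPM in JVM2, 14.6 to 24.1 in JEKO1 and 10.1 to 18.0 in MAVER1. TRAF3IP3 lay at 132 to 152 CPM in JVM2, 31.2 to 41.6 in JEKO1 and 5.36 to 15.3 in MAVER1. TNFAIP3, which encodes the NF-kB inhibitor A20, was higher than in JEKO1 by 3.52 in JVM2 (adjusted p = 7.68e-07) and by 2.46 in MAVER1 (adjusted p = 1.74e-05), and the deubiquitinase gene CYLD was higher by 1.66 in MAVER1. Of 9 tested subunits and IkB genes beside the members, 2 were called in each comparison with JEKO1, fewer than the share of all genes with both directions counted. These were NFKB1 and NFKBIA, higher by 2.35 and 2.86 in JVM2 and by 1.16 and 1.28 in MAVER1. In MAVER1 against JVM2, 3 of the 9 were called lower, namely NFKBIA at -1.57, NFKB1 at -1.19 and NFKBIZ at -1.14.

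Of 21 tested NF-kB target genes, 16 were called higher and 1 lower in JVM2 against JEKO1, with a median log2 fold change of 2.85 against -0.03 over all genes. In MAVER1 against JEKO1, 6 were higher and 2 lower, with a median of 0.50, and in MAVER1 against JVM2, 2 were higher and 13 lower, with a median of -2.13. SLAMF1 lay at 109 to 170 CPM in JVM2 and had at most 5 reads in any other library. EBI3 lay at 99.7 to 185 CPM in JVM2 and at or below 0.81 CPM elsewhere, and CCL22 at 77.1 to 224 CPM in JVM2, at most 3.32 CPM in JEKO1 and at most 1.40 CPM in MAVER1. BCL2A1, an antiapoptotic gene, lay at 37.9 to 48.1 CPM in JVM2, at most 3.07 CPM in JEKO1 and at most 0.38 CPM in MAVER1. CXCR5, a chemokine receptor gene, was lower in JVM2 than in JEKO1, at -3.48 (adjusted p = 0.000271), and higher in MAVER1 than in JVM2 by 3.25 (adjusted p = 0.000645). In MAVER1 against JEKO1, STAT5A was higher by 2.51, the costimulatory ligand gene ICOSLG by 2.16 and ICAM1 by 2.12, and CD86 was lower, at -3.04, as was BCL2A1, at -2.22 (adjusted p = 0.0421). ICOSLG was also higher in MAVER1 than in JVM2, by 1.61. TNFSF13B, TNFRSF8 and other genes near 0 in JEKO1 have large fitted folds that depend on the prior count. The folds of CXCR5 and BCL2A1 also rest on few reads, with 1 to 7 for CXCR5 in JVM2 and 3 to 14 for BCL2A1 in MAVER1.

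For TNFRSF17 and TNFRSF13C, the ironomycin effect was called as unequal over the 3 lines. TNFRSF17 was higher with ironomycin than in the control by 2.09 on the log2 scale in JEKO1 and by 1.40 in MAVER1, and JVM2 had a ratio of -0.63. With ibrutinib present, the ratio was 2.46 in JEKO1, 1.39 in MAVER1 and -0.37 in JVM2. A test of whether ironomycin acted unequally over the lines gave an adjusted p of 8.2e-06 (edgeR quasi-likelihood test on 2 coefficients), and its p-value of 4.23e-10 ranked 1 among 19375 genes. Each line and treatment had 1 library, so the spread in this test came from libraries under different treatments. It is not the spread between independent cultures. For TNFRSF13C, ironomycin alone gave a ratio of 0.39 in JEKO1, of 0.09 in JVM2 and of 1.09 in MAVER1, and with ibrutinib present the ratios were 0.91, 0.35 and 1.55. Its adjusted p was 0.0039, and 0.234 without MAVER1. These 2 of 10 members were called in this test, where 9.23% of all tested genes were. CD40 was at -1.03 in JEKO1, at 0.37 in JVM2 and at -1.12 in MAVER1, with an adjusted p of 0.0849, and was called without JEKO1 (0.00174), with DESeq2 (0.0449) and with no low-count filter (0.00997). BIRC3 and NFKB2 were not called, with an adjusted p of 0.593 and 0.585, but were without JEKO1, with 0.0281 and 0.0328. The remaining members had an adjusted p between 0.332 (BIRC2) and 0.846 (MAP3K14) in this test. Doses of ironomycin differed between lines, and their part in the difference cannot be told apart from the line.

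Over the 3 lines together, no member was called with ironomycin, where 0.206% of all tested genes were, nor with the combination against control, where 6.51% were, or against ibrutinib, where 4.81% were. TNFRSF17 had 0.93 with ironomycin (SE 0.51, adjusted p = 0.312) and 0.97 with the combination (SE 0.51, adjusted p = 0.181). Without JVM2 these were 1.70 (adjusted p = 0.0168) and 1.76 (adjusted p = 0.00284), both called. CD40 had -0.64 with ironomycin (adjusted p = 0.23) and -1.09 without JVM2 (adjusted p = 0.0352), which was called. TNFRSF13C with the combination had 0.77 (SE 0.21, adjusted p = 0.024) against control and 0.95 (SE 0.21, adjusted p = 0.013) against ibrutinib, each under the minimum fold, and 1.06 and 1.20 without JVM2, both called. Against ibrutinib it was also called with library totals (1.06, adjusted p = 0.0091). TNFRSF17 against ibrutinib had 1.16 (adjusted p = 0.125), and 1.88 without JVM2 (adjusted p = 0.00314), which was called. Without JEKO1 or MAVER1 the TNFRSF13C adjusted p was between 0.122 and 0.165 in these comparisons. The remaining members lay between -0.42 and 0.50 with ironomycin (adjusted p 0.0964 to 0.938, the lowest for TRAF2 at -0.34), between -0.45 and 0.24 with the combination against control (0.0572 to 0.764, the lowest for BIRC2 at 0.24) and between -0.22 and 0.41 against ibrutinib (0.122 to 0.95). In the combination against ironomycin, all 10 lay between -0.19 and 0.27 (0.631 to 0.985). Plasma cell markers were read beside TNFRSF17. Of the 5 listed (SDC1, PRDM1, MZB1, JCHAIN and CD38), the ironomycin library lay above the control for 3 in JEKO1, 0 in JVM2 and 5 in MAVER1, with a median log2 ratio of 0.46, -0.35 and 0.46. The combination library lay above the ibrutinib library for 2, 0 and 3 in the same order, with medians of -0.0067, -0.28 and 0.52. In JEKO1, SDC1 lay at 1.39 CPM in the control and 1.17 with ironomycin, and CD38 at 5.99 and 5.90. The 5 markers summed to 322 to 607 CPM in JEKO1 libraries, 383 to 620 in JVM2 and 679 to 1024 in MAVER1. None of the 5 was at 0. MZB1, a plasma cell marker, lay at 209 CPM in the JEKO1 control and 454 with ironomycin, at 225 and 205 CPM in JVM2, and at 256 and 476 CPM in MAVER1. The part of these markers in the TNFRSF17 values was not tested.

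Over the 12 libraries, the genes whose log2 CPM was most like that of TNFRSF17 were DNAJB11, an ER co-chaperone (r = 0.972), SEC61A1, the translocon subunit (r = 0.967), and SSR3, of the translocon-associated complex (r = 0.957), among 11203 named genes at a mean of at least 1 log2 CPM. Within lines, with each line's mean removed, r was between 0.939 and 0.945 for these genes. For NFKB2 they were GPR132 (r = 0.973), SLC25A43 (r = 0.970) and SIAH2 (r = 0.965). For TRAF3 they were MTAP (r = 0.999), NLRP2 (r = 0.999) and CDC42BPB (r = 0.997), and these values rest on the near absence of reads in MAVER1. The 12 libraries share lines and treatments, and these correlations describe the libraries, with no test.

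**Figure D4:**
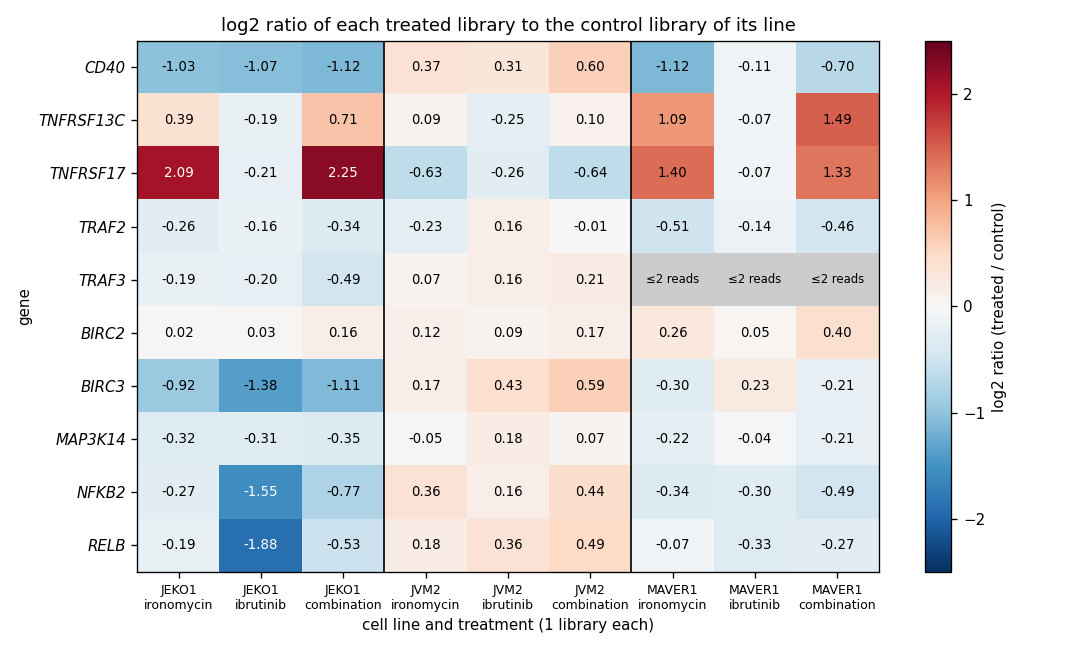
Log2 ratio of each treated library to the control library of its line (rows, genes; columns, line and treatment; 1 library each), with red for higher and blue for lower. TNFRSF17 is red in JEKO1 and MAVER1 and blue in JVM2 with ironomycin and with the combination, and NFKB2 and RELB are blue in JEKO1 with ibrutinib; TRAF3 in MAVER1 is grey, as it had at most 2 reads.

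With ibrutinib alone, no member was called and their log2 fold changes ran from -0.55 to 0.06, where 0 of 19375 genes were called by edgeR and 718 had an unadjusted p below 0.05 (DESeq2 called 9). Within JEKO1, 4 members lay at least 2-fold below the control library: RELB by a log2 ratio of -1.88, NFKB2 by -1.55, BIRC3 by -1.38 and CD40 by -1.07. Of all tested genes, 2.78% did so in that pair of libraries. RELB in JEKO1 held 4319 reads in the control and 1175 with ibrutinib, and 3996 with ironomycin and 3193 with the combination. NFKB2 in JEKO1 held 5599, 1918, 4905 and 3518 reads in the same order. The lowest of the JEKO1 libraries was thus that with ibrutinib alone for both genes, and the combination library lay closer to the control. BIRC3 in JEKO1 held 2067 reads in the control, 795 with ibrutinib, 1149 with ironomycin and 1022 with the combination, and was below the control in all. CD40 in JEKO1 held 2048, 976, 1057 and 1006 reads in the same order. Its treated libraries were thus alike, and the control library stood apart, as described below. The remaining members had ratios between -0.31 (MAP3K14) and 0.03 (BIRC2) with ibrutinib in JEKO1, with TRAF3 at -0.20. In JVM2 the same ratios with ibrutinib were 0.36 for RELB, 0.16 for NFKB2, 0.43 for BIRC3 and 0.31 for CD40, and in MAVER1 they were -0.33, -0.30, 0.23 and -0.11. Each is a ratio of 2 libraries with no replicate check, and all ratios of a line share 1 control library. The test of a difference of the ibrutinib effect between lines called no gene, with 472 of 19375 at an unadjusted p below 0.05. Unadjusted p was 0.0166 for BIRC3, 0.0167 for RELB and 0.022 for NFKB2, with adjusted p of 1 for each (edgeR). For the remaining members, the unadjusted p of the edgeR test lay between 0.113 (TRAF3) and 0.992 (BIRC2). DESeq2 called 95 genes in that test.

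NF-kB target genes had low ratios with ibrutinib in JEKO1 as well, again from 1 library each. Of 21 tested, 13 lay at least 2-fold below the control with ibrutinib, 0 lay at least 2-fold above it, where 2.78% of all genes were that far below and 1.71% that far above, and the median log2 ratio was -1.29. ICAM1, the adhesion molecule, had -2.85, CD83, an activation marker, -2.62, and CD80, a costimulatory ligand, -2.38. Many of the 13 were low in JEKO1 already in the control. There SLAMF1 lay at 0.13 CPM, EBI3 at 0.81, IL10 at 1.21, CD80 at 1.91 and CXCR5 at 2.64. BCL2A1, CCL22, IER3 and TNFAIP2 lay at 3.07 to 5.49 CPM, and ICAM1, CD86, CD44 and CD83 at 36.96 to 81.67 CPM. SLAMF1 and EBI3 did not exceed 0.81 CPM outside JVM2. Low genes also enter the counts below for ironomycin and the combination. In JVM2 the median was 0.21 with 18 of 21 genes above 0, and in MAVER1 it was 0.03. Of 9 other subunits and IkB proteins, 4 lay at least 2-fold lower in JEKO1: NFKBID (-2.76), BCL3 (-2.33), NFKBIA (-1.33) and NFKBIE (-1.11). With ironomycin alone, 7 of 21 targets lay at least 2-fold lower in JEKO1, where 2.38% of all genes did, with a median of -0.53. With the combination, 14 of 21 did, where 5.1% of all genes did, with a median of -1.23, and 4 of the 9 subunit and IkB genes did as well. Ibrutinib doses differed between lines, with the lowest, 0.5 µM, in JEKO1, so dose and line cannot be told apart here.

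**Figure D5:**
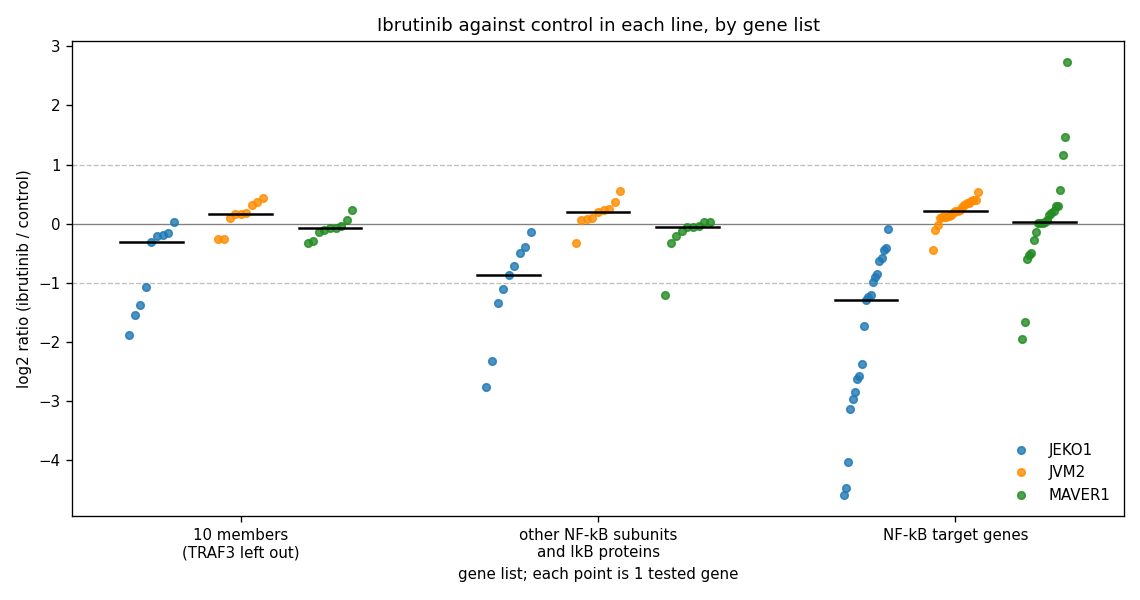
Log2 ratio of the ibrutinib library to the control library in each line for the members (TRAF3 left out) and 2 gene lists, with 1 point per tested gene and a black bar at the median. In JEKO1 the target genes have a median of -1.29, and in JVM2 and MAVER1 the medians are 0.21 and 0.03.

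With the combination, genes of the lists other than the members were called. Against control, TNFSF8 (CD30 ligand) was lower, with a log2 fold change of -2.21 (adjusted p = 0.00673), as was the costimulatory ligand gene CD86 at -1.87 (adjusted p = 0.0323). TNFRSF14 was higher by 1.29 (adjusted p = 0.00328) and TNFRSF4 by 1.15 (adjusted p = 0.0484). Against ibrutinib, TNFRSF18, TNFRSF4 and TNFRSF14 were called higher, by 1.94, 1.70 and 1.35, and TNFSF8 lower, at -2.01. Few reads lie behind TNFRSF18, with 9 to 24 in JVM2, and TNFRSF4, with 12 to 41 in JVM2 and 18 to 78 in MAVER1. TNFRSF14 had at least 365 reads in every library. No gene was called by edgeR against ironomycin, where 2028 had an unadjusted p below 0.05 and DESeq2 called 18. TNFSF8 was at or near 0 reads in JVM2 and MAVER1, so its value rests on JEKO1, where it lay at 7.28 CPM in the control, 2.46 with ironomycin, 6.60 with ibrutinib and 1.60 with the combination.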

How the data were processed

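The authors deposited raw counts of paired-end reads per Ensembl gene, with no normalization, for 12 libraries of polyadenylated RNA sequenced from a stranded kit (DNBSEQ). The submitters' processing notes name STAR, DESeq2 and GRCh37; the counter, its annotation and strand setting are not given in the sources used here, and no gene coordinates are printed for that build. Column totals ran from 35448523 to 38630809 reads, and no column was left unused (0). Of 63677 genes, 39699 were given a symbol; 132 of 134 list genes had an identifier, CCL3 and CCL4 had none, and IKBKE, IKBKG and OTUD7B were listed at 0 reads and were not analysed here.

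Counts were tested in R 4.3.3 with edgeR 4.0.16 (TMM, filterByExpr by line and treatment, quasi-likelihood F-test, Benjamini-Hochberg over 19375 genes), each model holding terms for line and treatment and using all 12 libraries. Log2 CPM used a prior count of 2, and per-kilobase levels used GENCODE 29 exon lengths. The line was a block: libraries of the same line come from 1 line, and their deviations from treatment means correlated at 0.947 to 0.987 (18 pairs), against -0.692 to -0.109 between lines (36 pairs). The alternatives were DESeq2 1.42.0, library totals, RLE factors, no low-count filter, no fold minimum, no treatment or line term, and leaving out libraries. Every number of reads carries counting error, and the intervals cover only that.

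Members and lists were chosen with earlier results of these data known. All members are reported in every comparison, by value or within a range; of each list, the called genes with the largest fold change are named, at most 3 in each direction and comparison, and for NFKB2, TRAF3 and TNFRSF17 the 3 most like genes. Outside that rule, the neighbours of TRAF3 and the genes absent from MAVER1, TNFSF13, CD40LG, TNFRSF13B, LTBR, MZB1, and the target and IkB genes named for JEKO1 with ibrutinib were chosen after their values were seen. Some list genes and 1 list are not reported here. Tables were made in Python 3.11.15 with pandas 2.3.3 and figures with matplotlib 3.10.9.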

Additional observations from a re-analysis of the deposited data

Results flagged for a closer look

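In 30 groups of 4 libraries of 1 line, the CD40 control library of JEKO1 stood apart, with 5.69 log2 CPM against 4.57 to 4.66 in the treated libraries, a gap of 0.917 of the range. The MAP3K14 control library of JEKO1 stood apart in the same way, with 5.24 against 4.90 to 4.93 and a gap of 0.9 of the range. The TRAF3 ibrutinib library of MAVER1 had a gap of 0.939, which is 2 reads against 1. Chance alone singles out about 1 in 20 such groups, and each library of a group had a different treatment.

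The test of the ironomycin effect by line called TNFRSF17 (adjusted p = 8.2e-06 in edgeR's quasi-likelihood test), with mean log2 ratios over libraries with and without ibrutinib of 2.27 (JEKO1), -0.50 (JVM2) and 1.40 (MAVER1). It called TNFRSF13C as well (adjusted p = 0.0039), with 0.65, 0.22 and 1.32 in the same order, but not without MAVER1 (adjusted p = 0.234).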

How the results depend on the processing

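No member comparison that was called in the line tests changed direction under any alternative run, and depth limits only TRAF3 in MAVER1, with 1 to 2 reads a library and a mean log2 CPM of -3.55, or -4.45 with a prior count of 0.5. MAP3K14 in MAVER1 against JEKO1 was not called with library totals (0.85) or without the ibrutinib libraries (0.99). Library totals moved the median of all genes by -0.23 in JVM2 against JEKO1, -0.19 in MAVER1 against JEKO1, 0.13 in the combination against control and 0.11 against ibrutinib, so changes there are relative to that shift. With no fold minimum, 15072, 12698 and 13622 genes were called in JVM2 against JEKO1, MAVER1 against JEKO1 and MAVER1 against JVM2.

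For treatments, ironomycin against control called 40 genes (23 higher, 17 lower), 74 with library totals (58 higher, 16 lower), 189 with no low-count filter, 143 with DESeq2, 106 with no fold minimum, 62 in the 6 libraries compared, and 1 to 369 when a line was left out. Ibrutinib against control called 10 with no filter, 9 with DESeq2, 13 in the 6 libraries compared and 0 to 1 when a line was left out. The combination against control called 832 with DESeq2, 5312 with no fold minimum, 13 in its 6 libraries and 22 to 1877 when a line was left out (958 higher and 303 lower in the main test, 1350 and 208 with library totals). The combination against ironomycin called 24, 18, 42 and 0 to 7 with no filter, with DESeq2, in its 6 libraries and when a line was left out. The combination against ibrutinib called 4401 with no fold minimum, 202 in its 6 libraries and 1 to 1439 when a line was left out. The ironomycin effect by line called 260 to 1897 when a line was left out, and the ibrutinib effect by line called 18 with no filter and 95 with DESeq2. Without the line as a replicate block, 0 genes were called in each treatment comparison, and the block changed no member's call. The cause of these shifts was not tested.

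Members that were not called and changed sign are given by setting. With library totals, TRAF3 had -0.022 in JVM2 against JEKO1, 0.011 with ironomycin, 0.0043 with ibrutinib, 0.011 with the combination, 0.00043 in the combination against ironomycin and 0.0066 against ibrutinib, RELB had 0.019 with ironomycin and BIRC3 0.064 in the combination against ibrutinib. Without the replicate block, BIRC3 had 0.063 with ibrutinib, TNFRSF17 -0.0079 in the combination against ironomycin and CD40 0.022 against ibrutinib. When the libraries of a treatment were left out, MAVER1 against JVM2 ran from -0.67 to 0.061 (TNFRSF17) and -0.0032 to 0.10 (MAP3K14). When a line was left out, ironomycin values ran from -0.21 to 0.077 (TRAF3) and -0.16 to 0.040 (RELB). Ibrutinib values ran from -0.56 to 0.062 (CD40), -0.15 to 0.0098 (TRAF2, and 0.0040 without MAVER1), -0.17 to 0.18 (TRAF3), -0.55 to 0.32 (BIRC3), -0.17 to 0.071 (MAP3K14) and -1.02 to 0.0038 (RELB). The combination against control ran from -0.50 to 0.21 (TRAF3), -0.73 to 0.20 (BIRC3) and -0.44 to 0.11 (RELB). Against ironomycin it ran from -0.045 to 0.12 (TNFRSF17), -0.30 to 0.14 (TRAF3), -0.28 to 0.069 (RELB), -0.017 to 0.14 (TRAF2), -0.051 to 0.27 (BIRC3) and -0.0089 to 0.071 (MAP3K14), and against ibrutinib from -0.33 to 0.031 (TRAF3), -0.38 to 0.15 (CD40) and -0.18 to 0.20 (BIRC3).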
